A study of Mus musculus with 4 samples.

Results

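The genes described here are the 3 peroxisome proliferator-activated receptors (Ppard, Ppara and Pparg), their 3 retinoid X receptor partners (Rxra, Rxrb and Rxrg) and 3 coregulators (Ppargc1a, Ncoa1 and Ncor1). They were chosen by gene symbol through the platform's probe table, and every probe set of each gene was taken. Of the 9 genes, 8 were read by 14 of the 22690 probe sets on the array, and they stand among 12394 genes that could be named. Ncor1, the nuclear receptor corepressor, had no listed probe set and was not analysed here. Ppard, Ppara, Pparg, Rxrb and Rxrg were read by 1 probe set each, Rxra and Ncoa1 by 2 each and Ppargc1a by 5.

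PPARs are nuclear receptors that are switched on by fatty acids and their derivatives. Each binds DNA as a pair with an RXR, which is itself a receptor for retinoids, and the pair recognises hexamers of the AGGTCA type. Without a ligand the pair is bound by corepressor complexes such as those of NCoR1, and a ligand brings in coactivators such as SRC-1 (the product of Ncoa1) and PGC-1α (the product of Ppargc1a). PPARγ is the central receptor of fat cell formation, PPARα is best known for fatty acid oxidation in liver and brown fat, and PPARδ is found in most tissues and drives fatty acid use in skeletal muscle. The mammary gland of a nulliparous mouse is ducts of luminal and basal epithelium within a pad of white fat, so its RNA holds PPAR genes of both compartments.

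Mammary gland RNA of female nulliparous FVB mice was hybridised to 4 Affymetrix mouse arrays. The groups were MMTV-PPARd mice on chow with GW501516, a synthetic PPARδ agonist, MMTV-PPARd mice on standard chow, wild-type littermates on GW501516 and wild-type littermates on standard chow. The diet lasted 1 week, and the labels gave the GW501516 content as 0.005% in the protocol and as 0.001% in a treatment tag. Equal amounts of RNA from 5 mice were pooled for each group, so every group was 1 array of 1 pool, and no difference below has a replicate check, a test or a standard error. MMTV names the mouse mammary tumour virus promoter, which is active in mammary epithelium and in some other epithelia. The littermates were age-matched, and the ages and the number of founder lines are not stated in the labels.

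The deposited values are linear intensities of probe sets with nearly the same trimmed mean on each array. Low values were raised to a floor of 20.5 (the 25th percentile), and a gene passed the filter when its intensity was 139 (the overall median) or more on any array. Of 12394 genes 7836 passed, and so did 7 of the 8 members; Rxrg did not. Where a gene had several probe sets, the one with the highest mean was kept to stand for the gene, and the others are given beside it. A member was counted as higher or lower from 2-fold upwards. The median size of a difference over all 7836 genes was 0.29 (log2) for GW501516 in transgenic mice, 0.21 for GW501516 in wild type, 0.21 for the transgene on GW501516 and 0.30 for the transgene on chow. Over 3897 genes with several probe sets, the kept probe set and the median of the others differed in these comparisons with an SD of 0.41 to 0.50 (log2).

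The tissue was checked against marker genes. The luminal keratin gene Krt8 was read on every array, at 8265.9, 5932.5, 5613 and 6056.8 in transgenic on GW501516, transgenic on chow, wild type on GW501516 and wild type on chow, and so was the fat cell hormone gene Adipoq, at 15056.5, 9983.6, 14185.5 and 13887.9. The pools differed in other tissues too. The 14 skeletal muscle markers summed to 119125 and 31991.9 in transgenic mice on GW501516 and on chow, and to 124775 and 13675.2 in wild type on GW501516 and on chow. The 7 measured T cell markers summed to 150.8, 1394.5, 165.4 and 4467.4 in the same order, with Cd4 below the floor on all arrays. The transgenic chow array also stood apart in control values, with Gapdh at 3572.5 there and 8730 to 12274.2 on the other arrays, and the BioB hybridisation control at 32.4 there and 438.1 to 519 on the others. In such bulk tissue, fewer cells of a type and less RNA per cell cannot be told apart.

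The sequence before the transcript start is shown for 3 of the members, Ppard, Pparg and Ppargc1a. For each, the 250 bases upstream of a RefSeq transcript start (GRCm38.p6) are given in the direction of transcription. For Ppard it lies before the native gene, whereas the viral promoter drives the transgene, and the capitals mark GGGCGG, the GC box:
Ppard, chr17:28232504-28232753, + strand: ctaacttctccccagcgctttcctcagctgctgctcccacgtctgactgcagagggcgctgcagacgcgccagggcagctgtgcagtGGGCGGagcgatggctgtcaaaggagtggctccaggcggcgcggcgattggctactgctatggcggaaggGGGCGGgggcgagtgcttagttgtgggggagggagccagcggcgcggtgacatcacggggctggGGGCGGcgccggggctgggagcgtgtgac
Pparg has 3 annotated starts, and its probe set, by its _a_at name, is one that reads several transcripts of a gene. The capitals mark AGGTCA, the hexamer that PPARs and RXRs recognise:
Pparg, first start, chr6:115360894-115361143, + strand: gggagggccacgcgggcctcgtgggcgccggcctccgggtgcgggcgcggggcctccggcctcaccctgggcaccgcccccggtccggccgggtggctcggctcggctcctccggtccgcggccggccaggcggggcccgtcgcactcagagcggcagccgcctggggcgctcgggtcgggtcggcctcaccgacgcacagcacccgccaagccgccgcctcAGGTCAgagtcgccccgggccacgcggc
Pparg, second start, chr6:115362099-115362348, + strand: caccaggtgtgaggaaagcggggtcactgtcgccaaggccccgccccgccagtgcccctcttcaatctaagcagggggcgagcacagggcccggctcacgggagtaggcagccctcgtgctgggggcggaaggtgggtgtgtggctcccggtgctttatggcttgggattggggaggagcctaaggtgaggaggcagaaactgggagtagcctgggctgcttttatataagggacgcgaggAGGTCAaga
Pparg, last start, chr6:115421816-115422065, + strand: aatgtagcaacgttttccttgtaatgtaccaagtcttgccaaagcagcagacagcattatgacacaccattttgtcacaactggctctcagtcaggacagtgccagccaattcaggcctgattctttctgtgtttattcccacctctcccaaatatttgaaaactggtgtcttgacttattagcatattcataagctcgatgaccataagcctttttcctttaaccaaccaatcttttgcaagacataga
For Ppargc1a, which is known for its response to cAMP in liver, muscle and brown fat, the capitals mark TGACG on the other strand, the core of the cAMP response element:
Ppargc1a, chr5:51567726-51567975, - strand: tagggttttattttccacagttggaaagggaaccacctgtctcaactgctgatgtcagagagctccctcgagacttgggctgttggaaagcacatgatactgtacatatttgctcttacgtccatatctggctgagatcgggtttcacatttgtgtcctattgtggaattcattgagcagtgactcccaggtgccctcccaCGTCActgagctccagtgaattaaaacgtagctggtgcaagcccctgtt

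These windows were searched on both strands, together with those of the other members (Ncor1 included), 15 starts in all, against 32851 starts in the RefSeq table. AGGTCA occurred in 4 of 15 member windows, at Pparg, Rxra and Rxrg, and in 4607 of the 32851. In Pparg it began 28 bases before the first start and 9 bases before the second, and it was not in the window of the last. A direct repeat of AGGTCA with 1 base between the copies, the exact form of the PPAR response element, was in none of the 15 and in 0.0335% of all. Inexact forms of it were not searched. TGACG was in 3 of 15, at Ppargc1a (49 bases before the start), Ppara and Rxrb, and in 17.8% of all, and the full palindrome TGACGTCA was in none of the 15 and in 1.55% of all. TGACG is part of that palindrome. GGGCGG was in 9 of 15 and in 32.7% of all, with 3 copies at Ppard and 7 at Ncoa1. The GC content was 69.6% at Ppard, 48% at Ppargc1a and 82.4%, 63.6% and 40.8% at the first, second and last start of Pparg, and its median over all windows was 52.4%. A match describes letters in a short window and says nothing of binding.

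Ppard, the gene carried by the transgene, separated the genotypes on both diets. Its intensity was 4223.5 in transgenic mice on GW501516 and 1943 in transgenic mice on chow, against 1.5 in wild type on GW501516 and 2.1 in wild type on chow. Both transgenic arrays were far above the median of all values and both wild-type arrays were below the floor. The difference was at least 7.69 (log2, transgenic over wild type) on GW501516 and at least 6.57 on chow. Within transgenic mice it was 2.17-fold higher on GW501516 than on chow, a size that 3.25% of all genes reached in that direction. Within wild type no fold can be given. Whether the probe set reads the native transcript, the transgene's or both was not tested.

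Of the 7 members that passed the filter, Ppard was therefore 1 of 7 at least 2-fold higher for the transgene on GW501516, where 2.82% of all genes were 2-fold higher and 1.19% 2-fold lower, and 1 of 7 for the transgene on chow, where the shares of all genes were 5.46% and 3.71%. Because the transgene carries Ppard, which passed the filter only through the transgenic arrays, both transgene counts followed from the design. The other 6 members were within 2-fold for the transgene on both diets. Ppard was also 1 of 7 for GW501516 in transgenic mice, where 3.99% of genes were higher and 4.07% lower. For GW501516 in wild type the 1 of 7 was Ppargc1a, with 3.18% of genes higher and 3.25% lower. No member was 2-fold lower in any of the 4 comparisons by its kept probe set. The median of the 7 members was 0.37 for GW501516 in transgenic mice, -0.16 for GW501516 in wild type, -0.05 for the transgene on GW501516 and -0.13 for the transgene on chow, and the medians of all genes were -0.03, -0.04, 0.0016 and 0.020.

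**Figure D1:**
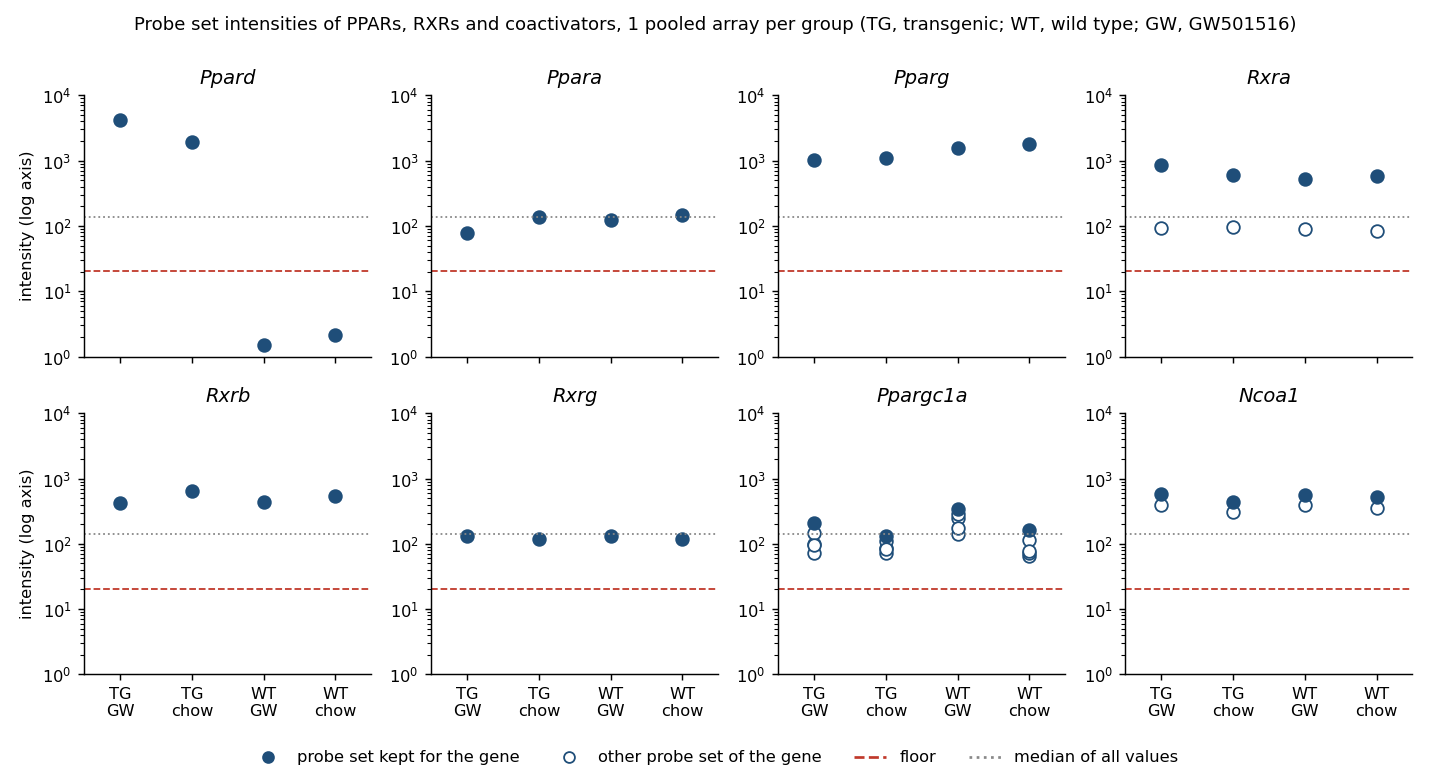
Intensity (log axis) of the 14 probe sets of 8 genes on the 4 arrays, with filled points for the probe set kept for a gene, open points for its other probe sets, the floor of 20.5 dashed and the median of all values (139) dotted. Ppard is high on both transgenic arrays and below the floor on both wild-type arrays, and all 5 probe sets of Ppargc1a are highest in wild type on GW501516.

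By the smallest root mean square difference of centred log2 values over the 4 arrays, the 3 genes most like Ppard were Plac1 (0.43), Pigr (1.06) and Aqp3 (1.11). Plac1, first described in placenta, read 2074.6 in transgenic mice on GW501516 and 1822.9 in transgenic mice on chow, against 15.8 in wild type on GW501516 and 9.2 in wild type on chow. It had the same division as Ppard, with both wild-type arrays below the floor, which follows from its being picked for likeness over these arrays. Unlike Ppard, its 2 transgenic arrays lay close together (0.19, log2, GW501516 over chow).

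Pparg was lower in transgenic than in wild-type mice on both diets, by less than 2-fold. Its intensity was 1035.2 in transgenic mice on GW501516, against 1554.7 in wild type on GW501516. On chow it was 1100.5 in transgenic mice, against 1770.3 in wild type. The log2 difference was -0.59 on GW501516 and -0.69 on chow, with the chow value 1.61-fold lower. Of all genes, 5.28% were as far below on GW501516 and 8.40% on chow, and 1.37% were at least 1.5-fold lower on both, a count chosen after the values were seen. GW501516 itself went with little difference in Pparg, at -0.09 in transgenic mice and -0.19 in wild type.

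Markers of white fat cells, fibroblasts and macrophages are set beside these values. Of 8 measured white adipocyte markers, all of which passed the filter, 7 were below 0 on GW501516 with a median of -0.31, and 7 were below 0 on chow with a median of -0.46. Their summed intensity was 59952.2 in transgenic mice on GW501516 against 66335.2 in wild type on GW501516, and 45669.6 in transgenic mice on chow against 61371.6 in wild type on chow. None of them was below the floor on any array. Pparg minus the list's median was -0.27 on GW501516 and -0.23 on chow, with none of the 8 below it on GW501516 and 1 below it on chow.

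The 6 fibroblast markers had a median of -0.04 for the transgene on GW501516, with 3 below 0, and of -0.48 on chow, with all 6 below 0. Their summed intensity was 55860.2 in transgenic mice on GW501516 against 55069.6 in wild type on GW501516, and 39488.3 in transgenic mice on chow against 56853.3 in wild type on chow. The 6 macrophage markers had medians of -0.13 on GW501516 and -0.49 on chow, with 4 and 5 below 0, and sums of 15785.3 in transgenic mice on GW501516 against 16379.1 in wild type on GW501516, and of 15525.9 in transgenic mice on chow against 18845 in wild type on chow. On chow all 3 lists thus had medians below 0 together with Pparg. The part of these cell types in the Pparg difference was not tested.

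Genes that PPARγ is known to switch on in fat cells were measured for 9 of 13 listed, and none was 2-fold higher or lower in any comparison, where 16% of all genes were in at least 1 of the 4. Their median was -0.15 for the transgene on GW501516, with 6 below 0, and -0.46 for the transgene on chow, with 8 below 0. Gpd1, which makes glycerol phosphate for triglycerides, was the lowest of them on GW501516, at 3392.1 in transgenic mice against 5296.4 in wild type. Cebpa, which works beside Pparg in fat cell formation, was the lowest on chow, at 1226.5 in transgenic mice against 1941.2 in wild type. The lipid uptake genes Lpl and Cd36 went both ways, at 0.12 and 0.16 on GW501516 and -0.46 and -0.21 on chow. Of these 9 genes, 4 are also among the white adipocyte markers.

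**Figure D2:**
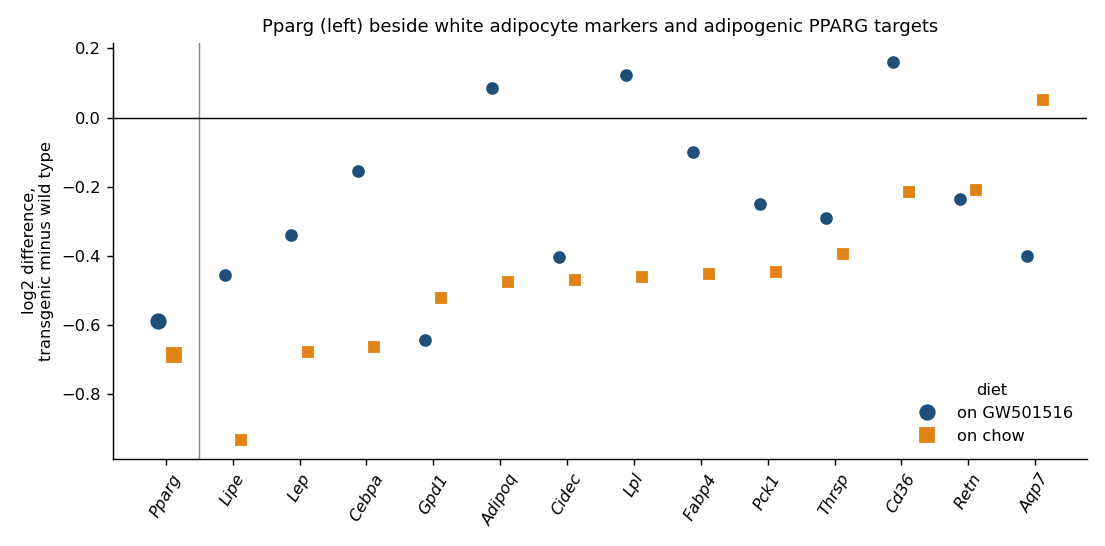
Log2 difference between transgenic and wild-type arrays on GW501516 (circles) and on chow (squares) for Pparg, at the left, and for white adipocyte markers and adipogenic PPARγ targets. Pparg lies at -0.59 and -0.69, and most of the other genes lie below 0, with smaller differences on GW501516 than on chow for Adipoq, Lpl and Fabp4.

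Ppara was read close to the filter of 139. Its intensity was 78.3 in transgenic mice on GW501516, 135.5 in transgenic mice on chow, 122.6 in wild type on GW501516 and 147.9 in wild type on chow. The transgenic GW501516 pool was the lowest and the other 3 lay between 122.6 and 147.9. The log2 difference was -0.79 for GW501516 in transgenic mice and -0.65 for the transgene on GW501516, and it was -0.27 for GW501516 in wild type and -0.13 for the transgene on chow. A gene at least 1.5-fold lower on the transgenic GW501516 array than on each other array, as Ppara was, made up 1.45% of all genes, a count chosen after the values were seen.

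Among the RXRs, Rxra, the main partner of PPARs in many tissues, had a kept probe set that was highest in transgenic mice on GW501516. It read 849.8 in transgenic mice on GW501516 and 604.6 in transgenic mice on chow, against 528.6 in wild type on GW501516 and 591.1 in wild type on chow. The log2 difference was 0.68 for the transgene on GW501516 (1.61-fold, a size that 5.64% of genes reached) and 0.49 for GW501516 in transgenic mice. The second probe set of Rxra did not show this, at 91.7, 96.2, 90.6 and 84.3 in the same order, with differences of 0.02 and -0.07. Its values were below the median of all values on every array.

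Rxrb, the broadly expressed partner, was lower on GW501516 in both genotypes, by less than 2-fold. It read 415.5 in transgenic mice on GW501516 against 642.2 in transgenic mice on chow. In wild type it read 431.1 on GW501516 against 539.7 on chow. The log2 differences were -0.63 and -0.32, and 10.6% and 18.1% of all genes were as far below. The genotypes differed by -0.05 on GW501516 and 0.25 on chow.

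Rxrg, the RXR of muscle and brain, was the member below the filter. It read 130.8 in transgenic mice on GW501516 and 120.5 in transgenic mice on chow, against 132.7 in wild type on GW501516 and 118.8 in wild type on chow. The highest was 1.12-fold above the lowest. Of 7746 genes that passed the filter and were above the floor on all arrays, 3.89% had a span as small. Rxrg, below the filter, is not one of them. The median span of those genes was 1.45-fold. The muscle marker sums given above spanned 13675.2 to 124775 over the same arrays.

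**Figure D3:**
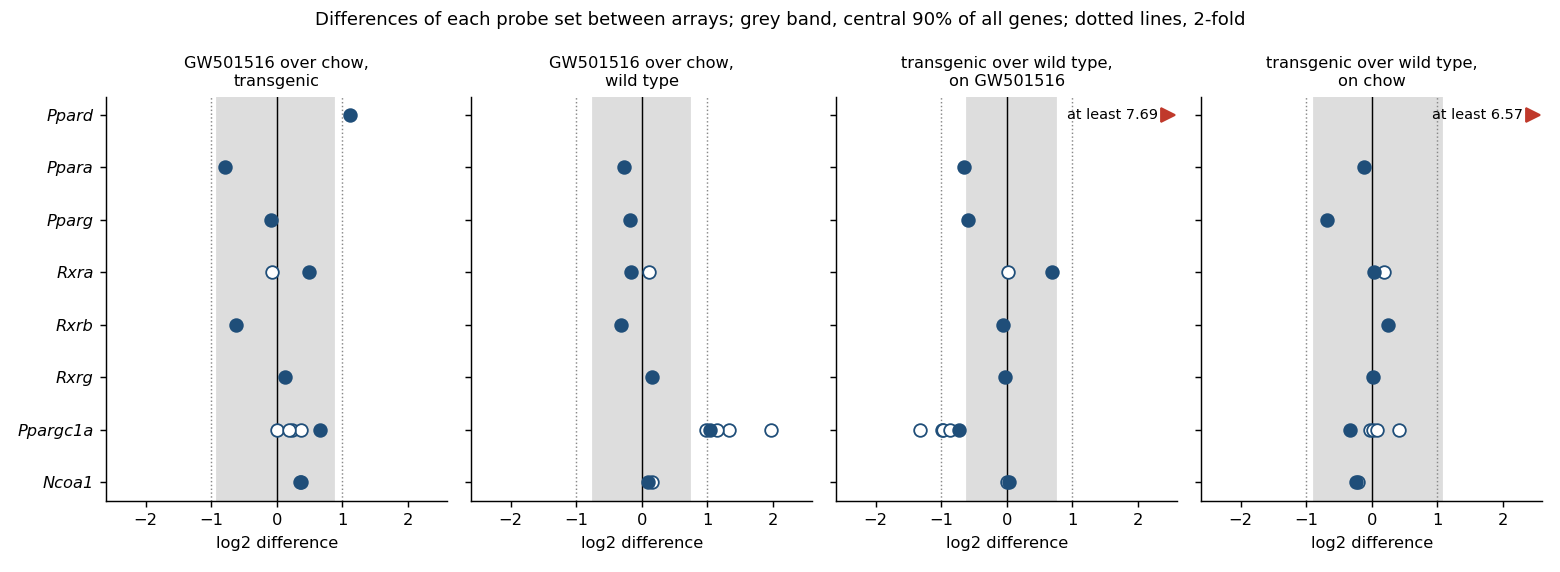
Log2 differences of every probe set in the 4 comparisons, with filled points for the kept probe set, open points for the others, and the central 90% of all genes in grey. Arrowheads mark Ppard, at least 7.69 and at least 6.57 higher in transgenic mice, the probe sets of Ppargc1a lie apart from 0 for GW501516 in wild type and for the transgene on GW501516, and the other members lie within 2-fold.

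Ppargc1a, whose product PGC-1α coactivates PPARs and drives the making of mitochondria in muscle and brown fat, was highest in wild type on GW501516 by all 5 probe sets. The kept probe set read 207 in transgenic mice on GW501516 and 130.9 in transgenic mice on chow, against 341.6 in wild type on GW501516 and 165.4 in wild type on chow. The probe set with the largest contrast read 99.9 and 85.5 in transgenic mice on GW501516 and on chow, against 250.5 and 64.3 in wild type on GW501516 and on chow. Wild type on GW501516 stood 1.65-fold to 2.51-fold above the next array over the 5 probe sets. A gene at least 1.5-fold higher on that array than on each other array, as Ppargc1a was, made up 0.766% of all genes, a count chosen after the values were seen.

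For GW501516 in wild type, the 5 probe sets gave log2 differences of 0.98 to 1.96 (median 1.14), and 4 of 5 reached 2-fold. In transgenic mice the same contrast gave -0.0040 to 0.66 with a median of 0.22, and 0 of 5 reached 2-fold. For the transgene on GW501516 all 5 were below 0, at -1.33 to -0.72 with a median of -0.97, and on chow they spread around 0, at -0.34 to 0.41. The difference between the GW501516 effects, transgenic minus wild type, was below 0 for all 5, at -1.74 for the probe set with the largest contrast and -0.39 for the kept one, and was not tested. The 5 probe sets share the same 4 arrays and are not replicates. The probe set with the largest contrast also shares its listed source sequence with another of them. All 5 read below the median of all values in transgenic mice on chow, as did all except the kept probe set in wild type on chow. The probe set with the smallest GW501516 difference in wild type read 141.7 in wild type on GW501516 and 71.9 to 72.6 on the other arrays.

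Skeletal muscle and brown fat, which are both known for Ppargc1a, could be followed by markers. GW501516 came with 2-fold or higher values of all 14 skeletal muscle markers in both genotypes (medians 2.05 in transgenic mice and 3.77 in wild type). Of all genes, 3.99% were 2-fold higher in transgenic mice and 3.18% in wild type. For the transgene on chow 10 of 14 reached 2-fold (median 1.51), against 5.46% of all genes. Between the genotypes on GW501516 the muscle median was -0.15, with 0 of 14 at 2-fold, against 2.82% of all genes higher and 1.19% lower. Ppargc1a stood there at -0.72 by its kept probe set, below all 14. Of the 14, Myh2 was below the floor in wild type on chow and the others were above it on all arrays. Of 7 measured brown adipocyte markers 6 passed, and their directions differed between genes and between comparisons. Their median was -0.54 for GW501516 in transgenic mice and 0.18 for GW501516 in wild type, where the kept Ppargc1a probe set stood at 0.66 and 1.05. It was -0.43 for the transgene on GW501516 and 0.26 for the transgene on chow, where Ppargc1a stood at -0.72 and -0.34. Ucp1, the uncoupling protein of brown fat, read 2264.2 in transgenic mice on GW501516 and 4657.8 in transgenic mice on chow, against 5045.5 in wild type on GW501516 and 3316 in wild type on chow. Cidea, a lipid droplet protein of brown fat, read 9453.5 and 4720.7 in transgenic mice on GW501516 and on chow, against 5537 and 5805.9 in wild type on GW501516 and on chow. For the transgene on GW501516 Ucp1 thus stood at -1.16 and Cidea at 0.77. In that comparison 5 of the 6 were below 0, 2 of them at least 2-fold, and Cidea was the 1 above. Elovl3 differed most, at 89.2 and 839 in transgenic mice on GW501516 and on chow, against 359.7 and 95.3 in wild type. For GW501516, 1 was above 0 and 5 below in transgenic mice, and 3 were above and 3 below in wild type. For the transgene on chow 4 were above and 2 below. The brown marker sums were 19465.8, 19034.5, 20800.9 and 18539.2 in the same order, with Zic1 below the floor throughout. The part of muscle or brown fat in the Ppargc1a values was not tested.

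**Figure D4:**
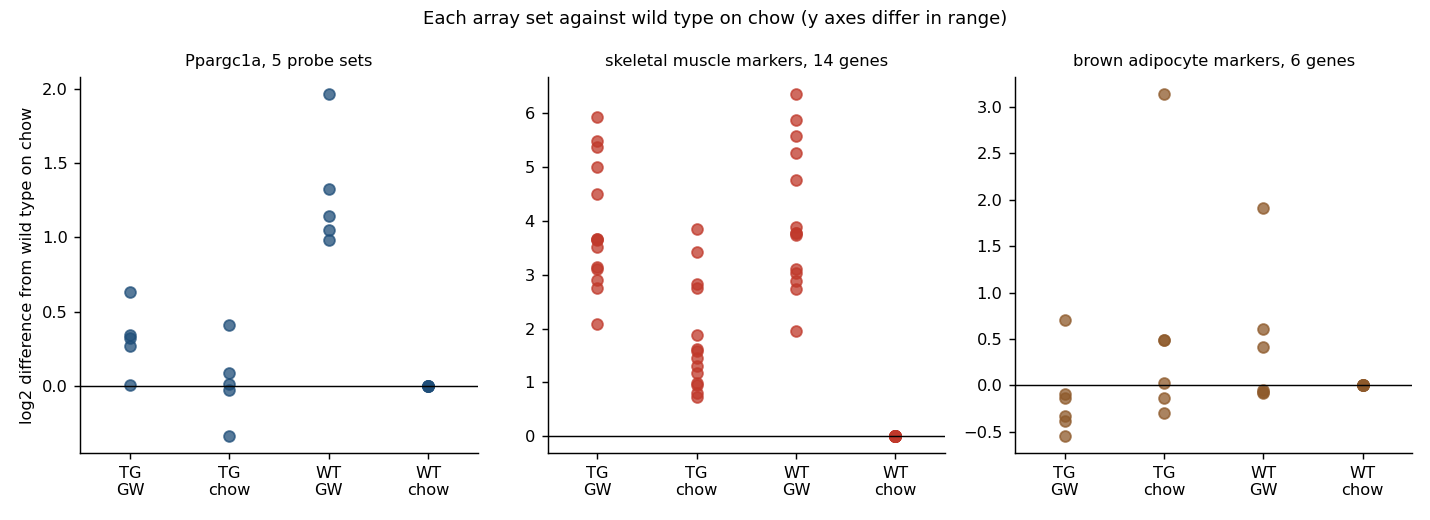
Log2 difference of each array from wild type on chow for the 5 probe sets of Ppargc1a, 14 skeletal muscle markers and 6 brown adipocyte markers (the vertical axes differ in range). Muscle markers are similarly high on both GW501516 arrays, while the Ppargc1a probe sets are highest in wild type on GW501516, where they lie at 0.98 to 1.96.

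The 3 genes most like the kept probe set of Ppargc1a over the 4 arrays were Aebp1 (0.060, the root mean square difference of centred log2 values), Gpc1 (0.12) and Pdk2 (0.12). Aebp1 read 997.8 in transgenic mice on GW501516 and 635 in transgenic mice on chow, against 1526.1 in wild type on GW501516 and 826.7 in wild type on chow. Pdk2, a kinase that restrains pyruvate oxidation, read 160.1, 87.4, 212.7 and 122.8 in the same order. Over 4 arrays many genes can share a profile, and the likeness is a description of these pools.

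Of 13 transcription factors that PGC-1α is known to act on, 8 passed the filter. Mef2c, a factor of muscle gene expression, was 2-fold higher for GW501516 in wild type, at 824.1 on GW501516 against 325.8 on chow (1.34, log2). In transgenic mice it read 617.3 on GW501516 against 379.6 on chow (0.70), the same order of arrays as the kept Ppargc1a probe set except on chow. No other factor of the list reached 2-fold in any comparison, and the list's medians lay between -0.07 and 0.15. Esrra, the estrogen-related receptor through which PGC-1α raises mitochondrial genes, read 575.9 and 532.4 in transgenic mice on GW501516 and on chow, against 493.7 and 563.6 in wild type on GW501516 and on chow. Ppargc1b, the close relative of Ppargc1a, read 352.3 and 319.3 in transgenic mice on GW501516 and on chow, against 418 and 346.5 in wild type on GW501516 and on chow, and was within 2-fold throughout.

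Ncoa1, whose product SRC-1 is a coactivator of many nuclear receptors, was among the steadier members. Its kept probe set read 571.2 in transgenic mice on GW501516 and 442.7 in transgenic mice on chow, against 559.3 in wild type on GW501516 and 522 in wild type on chow. Its second probe set read 398.8, 310.7, 399.1 and 358.9 in the same order. Both put transgenic on chow lowest and were 0.36 to 0.37 higher on GW501516 in transgenic mice. The span of the kept probe set was 1.29-fold, and 28.1% of genes had one as small.

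No other coregulator gene of the lists reached 2-fold. Of 18 other coactivator genes 15 were measured and 12 passed, and 0 of 12 reached 2-fold in any of the 4 comparisons, against 16% of all genes. Their medians were -0.06 to -0.03. Of 14 other corepressor genes 13 were measured and 11 passed, and 0 of 11 reached 2-fold in any of them. Their medians were -0.21 for GW501516 in transgenic mice, 0.02 for GW501516 in wild type, 0.10 for the transgene on GW501516 and 0.16 for the transgene on chow. Hdac3, the deacetylase that works with NCoR1, read 1496.9 in transgenic mice on GW501516 against 947.2 in wild type on GW501516, and 1155.3 in transgenic mice on chow against 1005.2 in wild type on chow. Sirt1, a deacetylase that acts on PGC-1α, was high on the transgenic chow array, at 600.9 there and 335.8 to 374.3 on the others.

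Other receptors that pair with RXR were fewer. Of 13 listed, 12 were measured and 5 passed, which were Rarg, Thra, Vdr, Nr1h3 and Nr4a1. Vdr, the vitamin D receptor, read 298.6 in transgenic mice on GW501516 and 318.4 in transgenic mice on chow, against 129.5 in wild type on GW501516 and 99.4 in wild type on chow. The transgene difference was 1.21 (log2) on GW501516 and 1.68 on chow, sizes that 1.98% and 2.13% of all genes reached upwards. Nr4a1, an orphan receptor that is also an immediate early gene, read 410.8 and 760.6 in transgenic mice on GW501516 and on chow, against 513.2 and 177.7 in wild type on GW501516 and on chow. It stood lowest in wild type on chow. Of 6 luminal epithelial markers that passed, the median was 0.38 for the transgene on GW501516, with 5 above 0 and 0 at 2-fold. On chow it was 0.58, with 4 above 0, 2 below 0 and 3 at least 2-fold higher, over a range of -0.31 to 2.56. The 6 basal epithelial markers that passed had a median of 0.04 on GW501516, with 3 above 0 and 1 at least 2-fold higher. On chow it was 0.79, with all 6 above 0 and 2 at least 2-fold higher. Of all genes, 2.82% and 5.46% were 2-fold higher. The part of either list in the Vdr values was not tested.

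The list of fatty acid and retinoid carriers also held Cd36, Lpl and Pnpla2, which are genes of lipid uptake or breakdown. Among its 8 measured genes, 2 were more than 2-fold higher in transgenic mice on both diets, Crabp2 and Fabp3. Of all genes, 2.82% were 2-fold higher for the transgene on GW501516 and 5.46% on chow. Crabp2, which hands retinoic acid to its nuclear receptors, read 1206.5 in transgenic mice on GW501516 and 795.9 in transgenic mice on chow, against 149.6 in wild type on GW501516 and 129.5 in wild type on chow. Crabp2 was 8.06-fold higher in transgenic mice on GW501516 and 6.15-fold higher on chow, sizes that 0.306% and 0.664% of all genes reached upwards. Fabp3, the fatty acid binding protein of muscle and of lactating mammary gland, read 14533.3 and 4160.2 in transgenic mice on GW501516 and on chow, against 2436.2 and 884.2 in wild type on GW501516 and on chow. It was higher with either factor, and for the transgene on GW501516 and on chow 0.459% and 1.03% of all genes were as far above. Fabp5, which can carry ligands to PPARδ, was within 2-fold, at 13267.3 and 8981.4 in transgenic mice and 12023.9 and 8760.3 in wild type on GW501516 and on chow. Crabp1 was lower in transgenic mice on GW501516 than on chow, at 174.8 against 500.6, and read 330.4 and 338.8 in wild type on GW501516 and on chow. All 8 milk and alveolar markers were above 0 for the transgene on GW501516 (median 1.84). On chow 6 were above 0 and 2 below (median 2.31), and Lalba was the lowest, at 159 in transgenic mice against 624.5 in wild type. Their part in the Crabp2 and Fabp3 values was not tested.

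Most oxidative targets of PPARα and PPARδ lay within 2-fold in each comparison. Of 25 listed, 20 were measured and 16 passed. For the transgene on GW501516 the median was 0.26, and 3 of 16 reached 2-fold upwards and 0 downwards, against 2.82% and 1.19% of all genes. On chow it was 0.06, and 3 of 16 reached 2-fold upwards and 1 downwards, against 5.46% and 3.71% of all genes. Acaa1b, a peroxisomal thiolase, read 6432 and 3837.5 in transgenic mice on GW501516 and on chow, against 1973 and 828.8 in wild type on GW501516 and on chow. Acot1, an acyl-CoA thioesterase, read 2494.4 and 4503.1 in transgenic mice on GW501516 and on chow, against 972.6 and 656.7 in wild type on GW501516 and on chow. For the transgene on GW501516 and on chow, 1.05% and 1.07% of all genes were as far above as Acaa1b, and 1.61% and 0.562% as far as Acot1. Acot1 was highest where Ppard was the lower of the 2 transgenic values.

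Ucp3, an uncoupling protein of muscle, read 1055.3 and 393.1 in transgenic mice on GW501516 and on chow, against 482.3 and 255.7 in wild type on GW501516 and on chow. It was highest in transgenic mice on GW501516. Vnn1, a pantetheinase, read 514.2 and 288.3 in transgenic mice on GW501516 and on chow, against 337.1 and 609.7 in wild type on GW501516 and on chow. It was the target 2-fold lower for the transgene on chow. For GW501516 the list's median was -0.01 in transgenic mice and 0.15 in wild type, and 1 of 16 reached 2-fold upwards in each and 0 downwards. Of all genes, 3.99% were 2-fold higher and 4.07% lower in transgenic mice, and 3.18% and 3.25% in wild type. The medians of the muscle markers (2.05 and 3.77) and of the milk markers (1.14 and 1.61) were above 0 for GW501516 in transgenic mice and in wild type, and the part of these markers in these values was not tested.

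**Figure D5:**
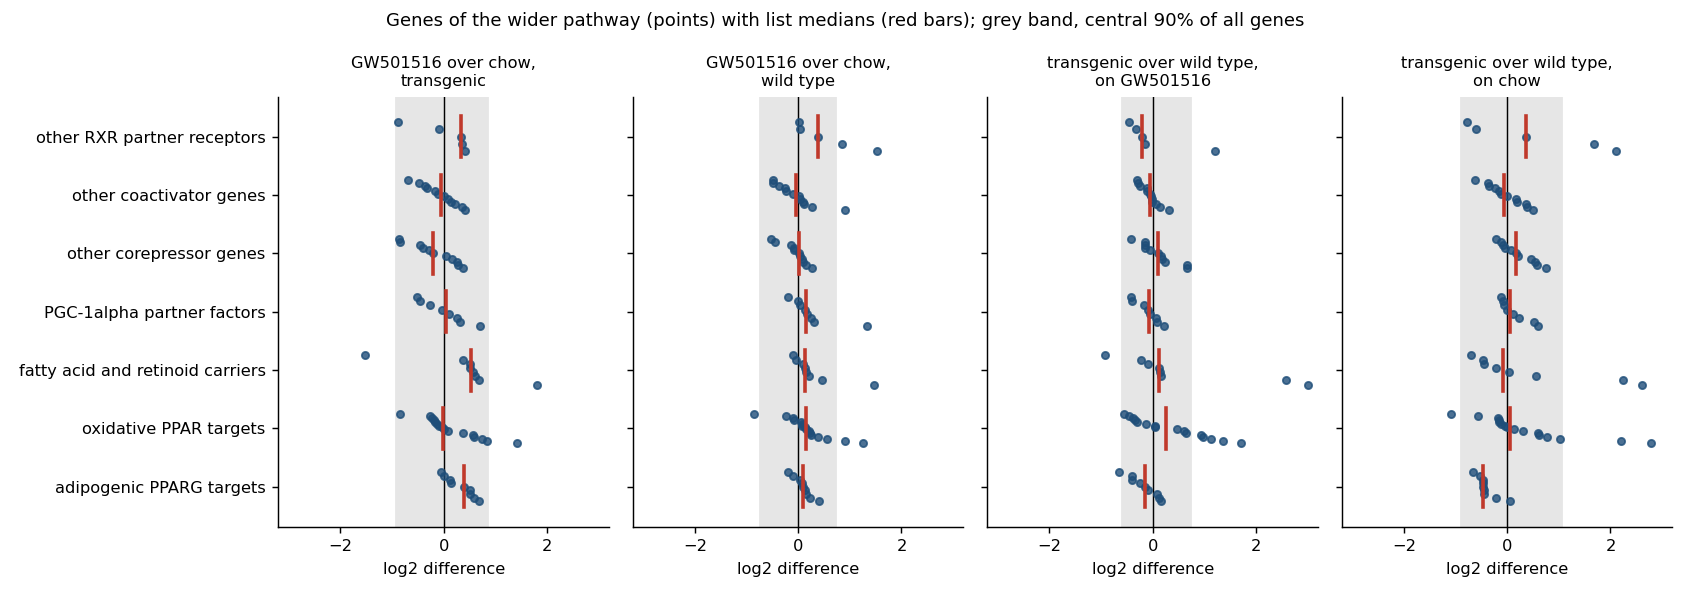
Log2 differences of the genes of 7 pathway lists that passed the filter (points) with each list's median (red bars) and the central 90% of all genes (grey) in the 4 comparisons. Other coactivators and corepressors stay within 2-fold, while Crabp2 and Fabp3 among the carriers and Acot1 and Acaa1b among the oxidative targets lie far to the right for the transgene on chow.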

How the data were processed

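RNA of 5 mice per group was pooled, labelled with biotin from 6 µg and hybridised to Affymetrix arrays, per the labels' protocols. The deposited intensity values were linear, with no negative value. A mean trimmed by 2% at each end came to 500.17 to 500.2 on each array, as in values scaled per array. The scaling step, scanner software, summarisation, detection calls and genome build are not given in the sources used here.

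Probe sets were named through the platform table with symbols updated by gene ID: 20393 had 1 gene (20364 matched by ID), 691 had several and named none, and 1606 were not listed. Values were floored at the 25th percentile (20.5) and put on the log2 scale, the probe set with the highest mean was kept per gene, and genes needed 139, the median, on 1 array. Each group is 1 array, so counts at 2-fold replace tests, and the number of arrays limits the precision.

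Named genes were all members, up to 4 genes of each pathway list at 2-fold or more, the 3 genes nearest to each member that spanned 2-fold, and marker genes beside a member. Esrra, Ppargc1b, Hdac3, Sirt1, Fabp5, Gpd1, Cebpa, Lpl, Cd36, Krt8, Cidea, Elovl3 and Lalba were picked after their values were seen. The members and lists were chosen with earlier results of these data known. Upstream windows of 250 bases came from RefSeq (GRCm38.p6). Alternatives in scaling, floor, filter, probe set choice and fold were run. Steps were tested on simulated data. Python 3.11.15, numpy 2.4.6, pandas 2.3.3 and matplotlib 3.10.9 were used.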

Additional observations from a re-analysis of the deposited data

Results flagged for a closer look

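Groups of 1 array allow no search for outlying samples. The results below went in opposite directions under the same contrast and differed by at least 2-fold (log2 of 1), and none of these differences was tested. They are 7 of 17 results in opposite directions among the member probe sets and the named pathway genes.

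A probe set of Ppargc1a, the one with the largest contrast, was lower in transgenic mice on GW501516 (-1.33) and higher on chow (0.41), a difference of -1.74 in the transgene effect. Nr4a1 was lower on GW501516 in transgenic mice (-0.89) and higher in wild type (1.53), and its transgene effect was -0.32 on GW501516 and 2.10 on chow, a difference of -2.42 either way. Crabp1 had a transgene effect of -0.92 on GW501516 and 0.56 on chow, a difference of -1.48. Acot1 was lower on GW501516 in transgenic mice (-0.85) and higher in wild type (0.57), a difference of -1.42. Vnn1 was higher on GW501516 in transgenic mice (0.83) and lower in wild type (-0.85), and its transgene effect was 0.61 on GW501516 and -1.08 on chow, a difference of 1.69.

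For Nr4a1, Crabp1 and Acot1 the transgenic chow array held the highest of the 4 values, and for Vnn1 it held the lowest (288.3). Gapdh read 3572.5 on that array against 8730 to 12274.2 on the others, and the BioB control 32.4 against 438.1 to 519. The part of that array in these differences was not tested.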

How the results depend on the processing

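No paired analysis was possible because each group was 1 array, and no array could be left out without ending a comparison. Counts of members at 2-fold were the same under the other scalings, floors, filters and probe set choices with 1 exception: without a floor, on log2(value + 16), 0 members were 2-fold higher for GW501516 in wild type, with Ppargc1a at 0.98. At 1.5-fold, the members counted were 4 for GW501516 in transgenic mice, 1 in wild type, 5 for the transgene on GW501516 and 2 on chow, and the genes counted higher and lower were 791 and 941, 537 and 570, 586 and 416, and 963 and 875 in that order. Without a filter, GW501516 in wild type had 366 genes higher and 394 lower at 2-fold, against 249 and 255 with it. Of 27 member differences, 25 kept their sign in all settings run. The other 2 were transgene differences on chow: Rxra ranged from -0.04 to 0.11 and Ppargc1a from -0.41 to 0.03. The Ppard bounds followed the floor, at 5.89 to 10.24 on GW501516 and 4.77 to 9.12 on chow. Ppara did not pass the stricter filter. The mean over probe sets put Rxra at 0.35 for the transgene on GW501516, and Ppargc1a at 0.29 for GW501516 in transgenic mice. No detection calls were used, so low intensities carry no measured error.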
